A study of Mus musculus with 4 samples.

Results

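The transcripts described here are 175 protein-coding genes that were abundant as a mean over all 4 samples of mouse embryonic stem cells (mESCs). They stood at least 1 log2 unit higher, which is 2-fold, after 24 h with Go6983. They were chosen by their measured values: of the 1577 genes in the deposited table, 1201 were protein-coding in GENCODE M21, 208 of those had a mean of at least 8 over the 4 samples on the log2(normalized count + 1) scale together with a difference of at least 1, and 33 of these were left out by name or gene family. The genes left out included *Klf4*, *Nanog*, *Prdm14* and *Lamp2*, together with major histocompatibility, zinc finger, transporter, channel, cadherin, collagen, integrin and guidance families recognised by the start of their symbols. Related genes under other symbols stayed in, such as *Dsg2*, *Trpm1*, *Aqp3*, *B2m* and *Zc3hav1*. The mean took in the Go6983 samples, so some members lay below 8 in NT, such as *Lrrc31* with an NT mean of 7.06. Because the Go6983 against NT difference chose the members, that difference is given below as a description and carries no test.

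The cells were 46C mESCs, a line with a GFP reporter in the *Sox1* locus, grown in serum-containing medium. The 2 NT samples received control medium and the 2 Go6983 samples received 5 µM Go6983, and total RNA was sequenced at 24 h. The labels do not state the vehicle, whether leukemia inhibitory factor was present, or whether the 2 samples of a group came from separate cultures, so the errors given measure only the spread between these samples. All 4 samples come from this 1 line and carry the same reporter, and the labels name no other alteration.

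Protein kinase C (PKC) enzymes are serine/threonine kinases that respond to diacylglycerol and, for the conventional isoforms, to calcium, and they phosphorylate substrates in adhesion, cytoskeletal, metabolic and transcriptional pathways. Go6983 is an ATP-competitive inhibitor that acts on several PKC isoforms, and it is used to hold mESCs in a self-renewing state. In embryonic stem cells fibronectin and desmosomal proteins tie cells to the matrix and to each other, while genes of the meiotic programme are known to be held low by repressive chromatin.

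The deposited table holds only genes that the authors listed as changed, and 1099 of its 1577 genes were higher with Go6983. The normalized counts were whole reads divided by 1 factor per sample for 100% of values within a tolerance of 0.05, and those factors ranged from 0.9342 to 1.0712. Reads in the listed genes ranged from 859777 to 1054236 per sample, and reads in genes outside the table were not analysed here. Of 10 genes fixed as markers of mESCs, 1 was listed, *Utf1*, which had 22464 and 22283 normalized counts in the NT samples and 10757 and 9513 with Go6983. None of the 10 trophoblast and none of the 10 primitive endoderm markers was listed, and unlisted genes have no value here. Of the fixed mESC markers only *Utf1* could therefore be looked at. The pluripotency genes *Klf4*, *Nanog* and *Prdm14* were not among the fixed markers. They are listed and higher with Go6983, and were left out of the members by name. The labelled cell type is not settled by *Utf1* alone. Of the 10 fibroblast markers *Col1a2* was listed, with 31.8 and 40.9 normalized counts in the NT samples and 78.4 and 82.4 with Go6983, and of the 10 neural markers *Pax6* and *Neurod1* were listed, with a summed level of 1538 and 1328 in NT and 432 and 349 with Go6983. Of the 10 mesendoderm markers *Kdr* was listed, with 113 and 121 normalized counts in NT and 74.7 and 35.3 with Go6983. The part of these cells in the members' values was not tested, and in bulk RNA fewer cells of a type and less RNA per cell cannot be told apart.

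In the limma fit over all 1577 genes, 68.8% were called higher and 29.7% lower at an adjusted p below 0.05, and in 69.6% both Go6983 samples lay above both NT samples. All 175 members were called higher, and in all 175 both Go6983 samples lay above both NT samples. The rule used this contrast, so nothing is read from those counts.

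The members took up a large share of the listed transcripts. Of the reads in listed genes they held 22.8% and 23.3% without the inhibitor and 48.4% and 50.1% with it. The 2 samples of each group lay close together and the groups did not overlap. The rule chose abundant genes that were higher with Go6983, so the higher share and the separate groups follow from it. *Fn1* alone held 24.7% and 23.3% of the members' reads in the NT samples and 22.9% and 22.5% with Go6983. Single members ranged from 122 to 52241 normalized counts in the NT samples and from 341 to 111821 with Go6983, with a median of the group means of 413 in NT and 1052 with Go6983.

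The differences were narrow in range. Their median was 1.20 on the log2 scale, with quartiles of 1.11 and 1.39 and limits of 1.00 and 2.65, against a median of 1.42 for all 1099 listed genes that were higher. Of the members, 119 differed by less than 1.3, 29 by at least 1.5 and 7 by at least 4-fold. The members nearest the limit on the mean were *Adam11*, *Cnksr2* and *Svop*, with means of 8.01, 8.02 and 8.03, and the genes next outside it were *Macrod1*, *Dnaic2* and *Tinagl1*, each at 7.98. At the limit on the difference *Trf*, *Ccdc141* and *Tcp11* differed by 1.0009, 1.0021 and 1.0035, and the table lists no gene just outside that limit.

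**Figure D1:**
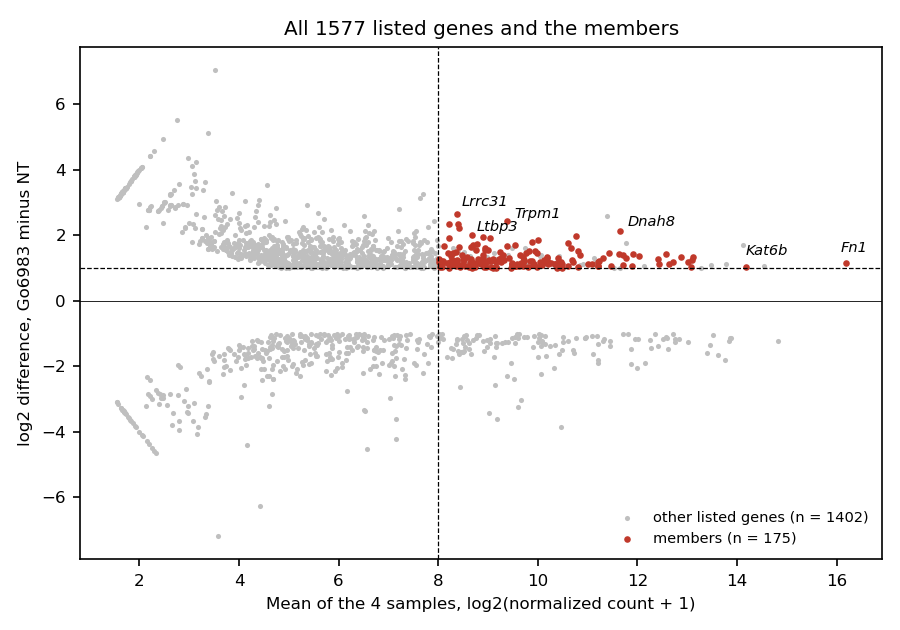
Each point is 1 of the 1577 listed genes, with its mean over the 4 samples on the x axis as log2(normalized count + 1) and its log2 difference, Go6983 minus NT, on the y axis. Red points are the 175 members, dashed lines are the limits of 8 and 1 that chose them, and most members lie in a band between 1.00 and 1.39 with *Lrrc31* highest at 2.65 and *Fn1* farthest right.

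Members were also alike between replicates. The median gap between the 2 NT samples was 0.13 and that between the 2 Go6983 samples was 0.10 on the log2 scale, against 0.28 and 0.25 over all listed genes and 0.13 and 0.12 over the 347 listed genes with a mean of at least 8. Go6983 replicate 1 lay above replicate 2 for 56 of the 175 members, against 790 of the 1577 listed genes and 171 of the 347. The members thus leaned to Go6983 replicate 2 more than the listed genes did. NT replicate 1 lay above replicate 2 for 90 members, against 753 of the 1577 and 206 of the 347. In 171 members the distance between the groups was larger than either gap between replicates. The rule required a difference of at least 1 and this count was not made over all listed genes, so nothing is read from it.

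Of the 175 members, 136 had a promoter window in the RefSeq table (build GRCm38.p6), which is 77.7% and under the 80% needed to compare base content or motif shares over the members, so that comparison is void. The stretches below are the 120 bases before the start of *Rec8* and *Dmc1* in GENCODE M21, shown because both genes act in meiosis. The RefSeq start of *Dmc1* is the same base, and that of *Rec8* lies 129 bases inside the gene. Capitals mark CCAAT on either strand, which reads ATTGG on the other; among the 20150 windows of protein-coding genes, 23.0% hold it in the 120 bases before their RefSeq start.
Rec8, chr14:55617917-55618036, + strand: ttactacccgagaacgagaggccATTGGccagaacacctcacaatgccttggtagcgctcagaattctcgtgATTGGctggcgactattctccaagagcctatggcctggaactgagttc
Dmc1, chr15:79605110-79605229, - strand: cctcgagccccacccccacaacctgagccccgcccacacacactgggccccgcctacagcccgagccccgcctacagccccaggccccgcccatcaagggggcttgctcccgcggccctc
*Rec8* had 2 such matches in the stretch, while these letters did not occur in that of *Dmc1*. Outside the stretch, a match also lies 81 bases before the RefSeq start of *Rec8*. The share above was taken before RefSeq starts, so for *Rec8* it covers other bases than those shown. A match is a description of the letters and not a bound site.

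Among the 20 members with the largest difference, 18 had at least 1 promoter window of 300 bases, from 250 before the RefSeq start to 50 after it. Of these 18 genes, 4 had the palindromic E-box CACGTG in any of their windows and 6 had CCAAT. Of all windows, 8.03% held CACGTG and 37.8% held CCAAT. A gene can have several windows, as the 20150 windows belong to 16522 genes. Counts of genes and shares of windows are therefore unlike measures, and they are descriptions with no comparison. The stretches of *Trpm1* and *Fam189a2* around the match are shown, with capitals for CACGTG. In these members it began before the RefSeq start, 229 and 52 bases upstream. *Coro6* and *C330007P06Rik* also had a match in a window, and its place is not given here.
Trpm1, chr7:64185209-64185259, + strand: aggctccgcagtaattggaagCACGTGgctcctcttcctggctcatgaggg
Fam189a2, chr19:24031042-24031095, - strand: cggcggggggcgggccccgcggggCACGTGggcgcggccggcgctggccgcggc
The *Trpm1* stretch belongs to a start inside the gene as GENCODE M21 draws it, and the counts do not tell which start was used.

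Extracellular matrix genes included the member with the highest normalized counts. *Fn1* encodes fibronectin, the matrix glycoprotein that integrins bind, and lies at chr1:71585520-71653200 on GRCm38. It had 52241 and 47719 normalized counts in the NT samples and 109259.9 and 111820.5 with Go6983, a 2.21-fold difference of 1.15 ± 0.10 (SE) on the log2 scale. Here and below a fold is 2 to the power of the log2 difference, and SE is the standard error of the log2 difference in the limma fit, with 2 samples per group. *Ltbp3*, which encodes a binding protein of latent TGF-β, had 207 and 196 normalized counts in the NT samples and 784 and 856 with Go6983. At 4.05-fold it differed the most of the matrix members, and per kb of exonic length its mean went from 22.2 to 90.4 normalized counts, against 4277 to 9460.0 for *Fn1*. *Fras1*, a basement membrane protein, had 315 and 314 in NT and 771 and 675 with Go6983, and the glypican gene *Gpc6* had 279.5 and 288 in NT and 623 and 639 with Go6983. *Adam11*, of the disintegrin and metalloprotease family, was the lowest member by its mean, at 164 and 176 in NT and 364 and 410.0 with Go6983. The 5 matrix members all had the NT samples apart from the Go6983 samples, and 4 of them lay between 1.15 and 1.20 on the log2 scale. Counts over a gene list, here and below, come from the contrast that chose the members and stand beside the 68.8% and 29.7% of all listed genes. In the whole matrix and protease list, 29 genes were in the table, of which 20 were called higher and 9 lower. No abundant lower gene came from it. Abundant lower genes, here and below, were found by the same limits with the same names and families left out. Genes of those families, such as collagens, could therefore not be among them.

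Junction genes were represented by desmosomal and sulfation proteins. *Dsg2*, a desmosomal cadherin, had 2661 and 2572 normalized counts in the NT samples and 6496 and 6992 with Go6983, a difference of 1.36 ± 0.09 (SE). *Dsp* encodes desmoplakin, which anchors desmosomes to intermediate filaments, and it had 2171 and 2263 normalized counts in the NT samples and 5370.5 and 5533 with Go6983. Replicates were close for both genes, and the differences were 2.58-fold and 2.46-fold. *A4galt*, the enzyme that makes globotriaosylceramide, had 229.7 and 224 normalized counts in the NT samples and 814 and 686 with Go6983. Both Go6983 samples of *A4galt* were over 3 times the NT mean, with replicate 1 the higher. *Chst10* and *Chst11* encode carbohydrate sulfotransferases. *Chst10* had 609.6 and 492 in NT and 1324 and 1288 with Go6983, and *Chst11* had 409 and 398 in NT and 788 and 842 with Go6983. *Emp2*, a tetraspan membrane protein gene, had 301 and 283 in NT and 834 and 711 with Go6983. The list of membrane organisation, junctions and glycosylation had 49 genes in the table, 29 called higher and 20 lower, with 7 members and 9 abundant genes that were lower, so abundant genes of this list lay on both sides.

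The cytoskeleton and motor list held 9 members, more than any list apart from the transcription factor families. *Lima1*, an actin-bundling protein, had 3467 and 3488 normalized counts in the NT samples and 8286 and 8694 with Go6983, with the 2 NT samples nearly equal. *Dnah8*, an axonemal dynein heavy chain, had 1601 and 1472 normalized counts in the NT samples and 6408 and 7026 with Go6983, which at 4.37-fold was the largest difference in this list. *Myh13*, a myosin heavy chain known from extraocular muscle, had 531 and 548 normalized counts in the NT samples and 1735 and 2169 with Go6983. Both are best known from motile cilia or muscle, and for both the Go6983 samples lay well apart from the NT samples, with replicate 2 the higher. *Coro6*, of the coronin family of actin regulators, had 219 and 236 in NT and 677 and 748 with Go6983. *Kif26a*, of the kinesin family, had 715 and 742 in NT and 1563 and 1649.5 with Go6983. *Mylpf* encodes a regulatory light chain of fast skeletal myosin and was placed in the naive pluripotency list; it had 2249 and 2428 normalized counts in the NT samples and 5855 and 6721 with Go6983, a difference of 1.42 ± 0.11 (SE). Of the 35 cytoskeletal genes in the table, 26 were called higher and 9 lower, 2 abundant genes were lower, and the 9 members ranged from 1.04 to 2.13 on the log2 scale.

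**Figure D2:**
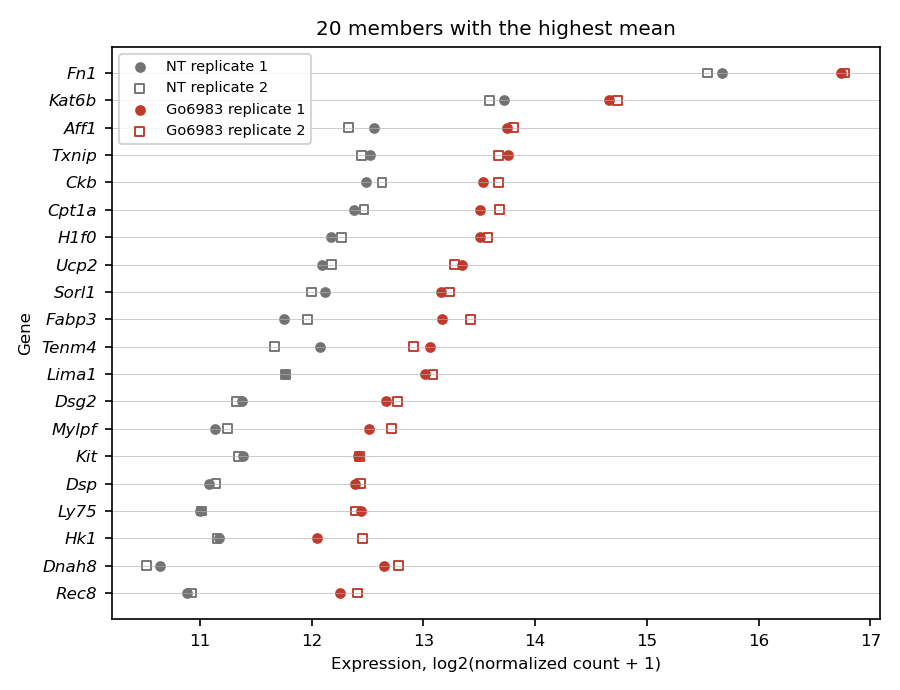
Expression in each sample, as log2(normalized count + 1) on the x axis, of the 20 members with the highest mean, ordered from *Fn1* down to *Rec8*. Grey marks are the 2 NT samples and red marks the 2 Go6983 samples, and for every gene both red marks lie to the right of both grey marks, with the widest separation for *Dnah8*.

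Members with a role in meiosis were *Rec8*, *Dmc1* and *Stra8*, detected in both groups. *Rec8*, the kleisin of meiotic cohesin, had 1893 and 1949 normalized counts in the NT samples and 4887 and 5455 with Go6983, a difference of 1.43 ± 0.10 (SE). *Dmc1*, the meiosis-specific strand exchange recombinase, had 458 and 503 normalized counts in the NT samples and 1060.5 and 1054 with Go6983. *Stra8*, which is needed to enter meiosis and is known as a target of retinoic acid, had 183 and 171 normalized counts in the NT samples and 478 and 488 with Go6983. The replicates of all 3 genes lay close together, and the fold differences were 2.69, 2.20 and 2.72. Per kb of exonic length the mean level went from 654 to 1762 normalized counts for *Rec8*, from 197 to 434 for *Dmc1* and from 98.1 to 268 for *Stra8*, so *Rec8* was the highest of them in both groups. *Kit*, the receptor of stem cell factor and a germ cell and progenitor gene, had 2677 and 2605 normalized counts in the NT samples and 5472 and 5516 with Go6983, with the 2 Go6983 samples almost equal. In the germline and meiosis list 15 genes were in the table, 11 called higher and 4 lower, with *Magel2* the abundant gene that was lower.

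Chromatin genes were also among the members with the highest counts. *Kat6b*, a MYST-family histone acetyltransferase, ranked next after *Fn1* by mean normalized count with 13518 and 12347 normalized counts in the NT samples and 25882 and 27366 with Go6983, although its difference of 1.04 ± 0.10 (SE) was near the limit. *H1f0* encodes the linker histone H1.0, known for its accumulation in cells that stop dividing, and it had 4615 and 4922 normalized counts in the NT samples and 11612 and 12231 with Go6983. *Hdac7*, a class IIa histone deacetylase, had 376 and 434 in NT and 938 and 925 with Go6983. *Padi2*, which converts arginine to citrulline in histones and other proteins, had 369 and 330.0 in NT and 895 and 815 with Go6983. *Aff1*, a scaffold of the super elongation complex, was not on the list and ranked next after *Kat6b*, with 6028 and 5161 normalized counts in the NT samples and 13788 and 14318 with Go6983. In these 5 genes the groups were apart, and *Aff1* had the largest fold at 2.52. Of the 13 listed chromatin regulators 8 were called higher and 5 lower, and the abundant lower ones were the DNA methyltransferase genes *Dnmt3l*, *Dnmt3a* and *Dnmt3b*.

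Transcription factors formed the largest list, with 10 members, and 15 abundant genes of the same list were lower. *Elf3*, an epithelial ETS factor, had 1049 and 1058 normalized counts in the NT samples and 3694 and 2514 with Go6983, and Go6983 replicate 1 was the high sample. The related *Elf4* had 591 and 652 normalized counts in the NT samples and 1441 and 1439.7 with Go6983, with the 2 Go6983 samples nearly equal. *Stat5b*, a signal transducer of cytokine receptors, had 389 and 387 normalized counts in the NT samples and 1025 and 1032 with Go6983. Of all members *Stat5b* had the smallest gap between replicates relative to its difference. *Klf12*, a Krüppel-like repressor, had 862 and 641 in NT and 1622 and 1669 with Go6983. *Creb3l2*, a bZIP factor that is anchored in the endoplasmic reticulum, had 284 and 288 in NT and 694 and 684 with Go6983. *Pou6f1*, of the POU family, had 252 and 224 in NT and 592 and 621 with Go6983. The highest of the 10 by difference, *Bcl6*, a repressor best known from germinal centre B cells, was named after its values were seen and had 202 and 185 in NT and 585 and 621 with Go6983. The 10 members ranged from 1.11 to 1.64 on the log2 scale. Of the 64 listed genes of these families 42 were called higher and 22 lower.

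Lipid genes covered fatty acid transport, oxidation and synthesis. *Cpt1a*, which carries out the rate-limiting step of fatty acid entry into mitochondria, had 5314 and 5666 normalized counts in the NT samples and 11673 and 13127 with Go6983, a difference of 1.17 ± 0.10 (SE). *Fabp3*, a fatty acid-binding protein, had 3450.0 and 3996 normalized counts in the NT samples and 9210.0 and 10966 with Go6983, a difference of 1.44 ± 0.13 (SE). *Scd1*, the stearoyl-CoA desaturase, had 1649.9 and 1596 normalized counts in the NT samples and 3969 and 3998 with Go6983. The replicates of *Scd1* were the closest of the 3, and *Fabp3* differed the most. *Pla2g4b*, a cytosolic phospholipase, had 295 and 280.0 in NT and 692 and 1029.7 with Go6983, but 66.5% of its exonic bases are shared with the same-strand gene *Gm28042*, so its reads are uncertain. The 7 lipid members ranged from 1.17 to 1.55, and 18 of the 24 genes of this list in the table were called higher and 6 lower. Abundant lipid genes that were lower were *Acsl5*, *Lpar6*, *Acsl4* and *Agpat2*.

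Mitochondrial and energy genes included *Ucp2*, an inner membrane carrier protein, with 4374 and 4639 normalized counts in the NT samples and 10416 and 9912 with Go6983. *Ckb*, the brain-type creatine kinase, had 5748 and 6335 normalized counts in the NT samples and 11881 and 13059.7 with Go6983. *Hk1*, the hexokinase that opens glycolysis, had 2300.3 and 2277 normalized counts in the NT samples and 4246 and 5617 with Go6983. *Ucp2* and *Ckb* had close replicates, whereas the Go6983 samples of *Hk1* were further apart with replicate 2 the higher. *Txnip* binds thioredoxin and limits glucose uptake, and it had 5869.7 and 5581 normalized counts in the NT samples and 13808 and 13064 with Go6983, which is 2.35-fold. *Cyp2s1*, a cytochrome P450, had 521 and 632 in NT and 1272 and 1136 with Go6983. *Ndufaf4*, an assembly factor of respiratory complex I, had 458 and 603 in NT and 1373 and 1300.5 with Go6983. Of the 33 listed genes of carbohydrate, amino acid and redox metabolism 22 were called higher and 11 lower, with 4 abundant lower genes beside the 5 members. Of the 7 listed mitochondrial genes 6 were called higher and 1 lower, the lower one being abundant.

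Levels of different genes can be compared only per length, so normalized counts were divided by the exonic length in GENCODE M21. Per kb of exonic length *Fabp3* was the highest member with Go6983, at 12258 normalized counts per kb, followed by *Fn1* at 9460, *Mylpf* at 5921, *H1f0* at 5801, *Ckb* at 4308 and *Txnip* at 4302. In NT, *Fabp3* with 4524 and *Fn1* with 4277 normalized counts per kb led as well. *Kat6b*, next after *Fn1* by count, was at 1582 normalized counts per kb with Go6983, and *B2m* at 2970.

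**Figure D3:**
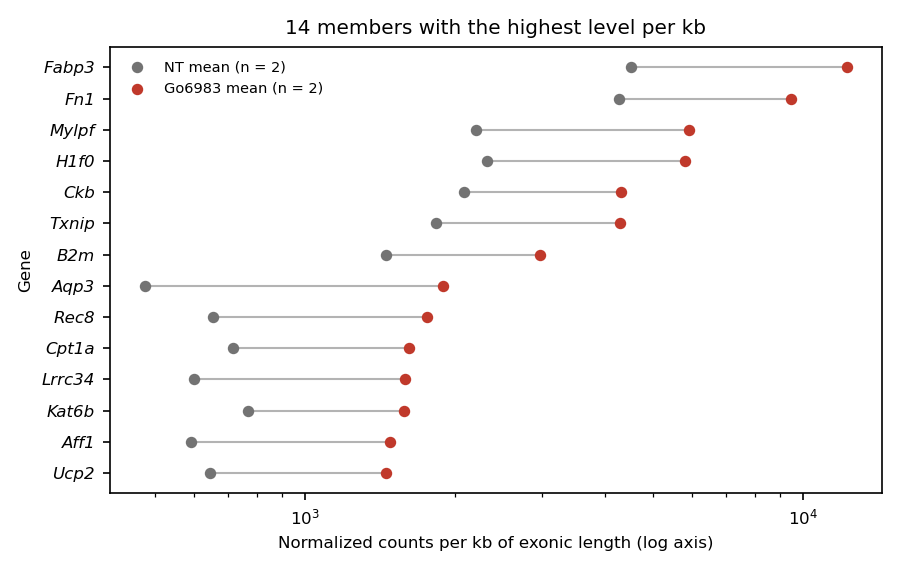
Normalized counts per kb of exonic length, on a log axis, for the 14 members with the highest level per kb with Go6983. Grey points are NT means and red points Go6983 means of 2 samples, and *Aqp3* spans the widest interval, from 477 to 1895.

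Signalling members were spread over many families. *Bmp7*, a BMP ligand, had 358 and 388 normalized counts in the NT samples and 1198 and 1197 with Go6983, with the 2 Go6983 samples almost identical. *Insr*, the insulin receptor, had 765 and 639 normalized counts in the NT samples and 1377 and 1799 with Go6983. *Gprc5a*, an orphan receptor known to be induced by retinoic acid, had 562 and 651 normalized counts in the NT samples and 1398 and 1404 with Go6983. None of these genes overlapped between groups, and *Bmp7* had the largest fold of them at 3.21. *Sh3pxd2a* encodes the podosome scaffold TKS5, and its NT samples, 1240.2 and 2226, were far apart while the Go6983 samples were at 4409 and 4672. *Plxdc1*, a plexin domain-containing transmembrane protein, had 544 and 494 in NT and 1047 and 1116 with Go6983. Of the 77 receptors, ligands and signal transducers in the table, those called higher numbered 48, those called lower 28, and 1 was not called, with 7 members against 12 abundant genes that were lower. The lower ones include the FGF pathway genes *Fgf5*, *Fgf15*, *Fgfr2*, *Spry4* and *Spred3*.

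Phosphatase members included the one with the least certain difference. *Ppm1h*, a metal-dependent protein phosphatase, had 134 and 433 normalized counts in the NT samples and 822 and 1079 with Go6983, a difference of 1.96 ± 0.53 (SE) with the largest SE of all members. Its 2 NT samples differed by more than 3-fold, yet both lay below both Go6983 samples. *Ppm1e* of the same family had 278 and 256 in NT and 551 and 637 with Go6983. *Ptprd*, a receptor tyrosine phosphatase, had 264 and 194 in NT and 468 and 473 with Go6983, and *Ppp6r2*, a regulatory subunit of phosphatase 6, had 492 and 472 in NT and 1019 and 1100.4 with Go6983. Of 11 listed phosphatases 6 were called higher and 5 lower, and the abundant lower ones include the ERK phosphatase genes *Dusp4* and *Dusp6*.

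Kinases, cyclic nucleotide enzymes and GTPase regulators added smaller groups, none of them among the 20 highest means. *Alpk3*, an alpha kinase, had 782 and 701 normalized counts in the NT samples and 1747 and 1956 with Go6983. *Mapk4*, an atypical MAP kinase, had 609.6 and 480.3 normalized counts in the NT samples and 1151 and 1109 with Go6983. *Itpka*, which phosphorylates inositol trisphosphate, had 242 and 277 normalized counts in the NT samples and 632 and 621 with Go6983. The 3 kinase members differed by 1.06 to 1.32, and 11 of 17 listed kinases were called higher, 5 lower and 1 was not called, with 4 abundant lower genes. *Pde8a*, a phosphodiesterase specific to cAMP, had 842 and 818 normalized counts in the NT samples and 1876 and 1800.4 with Go6983. *Pde4c*, of another cAMP-specific family, had 303 and 256 normalized counts in the NT samples and 874 and 828 with Go6983, and *Pde6d*, a prenyl-binding protein named as a phosphodiesterase subunit, had 691 and 794 in NT and 1582 and 1589.5 with Go6983. *Pde4c* was the one with the largest fold, 3.04, and of the 12 listed genes of calcium and cyclic nucleotides 11 were called higher and 1 lower. *Srgap3* and *Srgap1* encode GTPase-activating proteins of the Slit-Robo pathway. *Srgap3* had 849 and 896 in NT and 2014 and 1824 with Go6983, and *Srgap1* had 399 and 377 in NT and 736 and 1273 with Go6983, where replicate 2 was the high sample. *Rin2*, an exchange factor for Rab5, had 644 and 599.8 in NT and 1269 and 1276 with Go6983. Of 15 listed genes of small GTPases and their regulators 11 were called higher and 4 lower, and no abundant gene of that list was lower. The list of PKC, phospholipase C and diacylglycerol genes had 3 genes in the table, of which 2 were called higher and 1 lower, and gave no member.

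**Figure D4:**
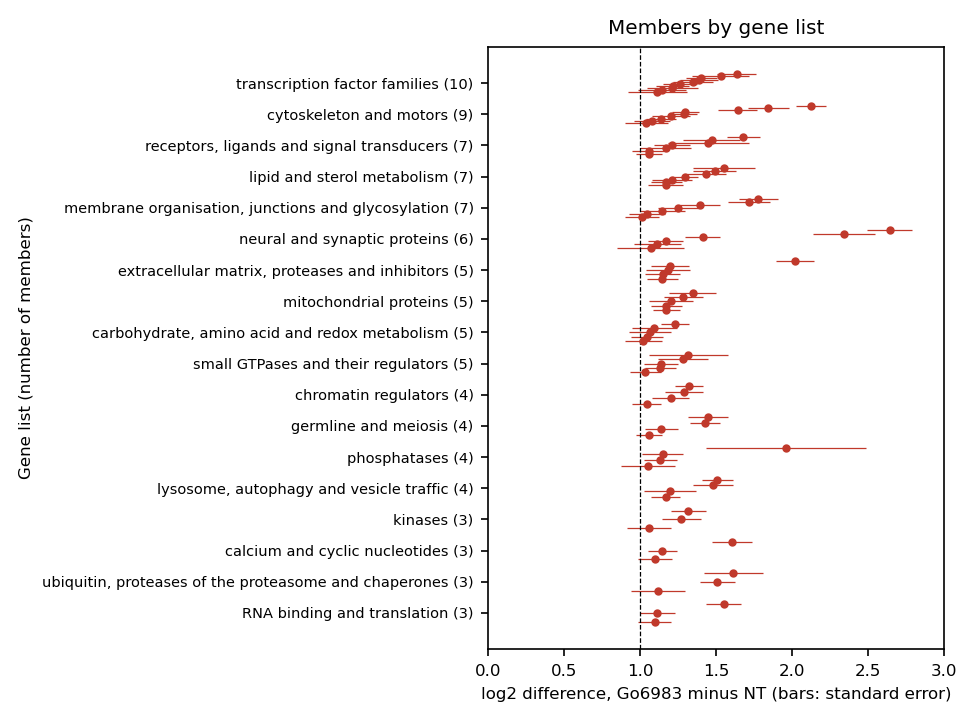
Log2 difference, Go6983 minus NT, of each member (points, with bars of 1 standard error from the limma fit) in the 18 gene lists that hold at least 3 members, with the number of members in brackets. The dashed line is the limit of 1 that chose the members; most points lie within 0.5 of it, and *Ppm1h* among the phosphatases has the longest bar.

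Vesicle, ubiquitin and RNA-binding genes made up smaller groups. *Sorl1*, a sorting receptor of the endosome and Golgi, was on no list and had 4448 and 4092 normalized counts in the NT samples and 9127 and 9625 with Go6983. *Dnm1*, the neuronal dynamin that cuts endocytic vesicles, had 525 and 552 normalized counts in the NT samples and 1552 and 1517 with Go6983, at 2.85-fold the largest of the 4 lysosome and vesicle members. Of the 17 genes of that list 15 were called higher and 2 lower, with 1 abundant lower gene. *Cbll1*, an E3 ubiquitin ligase also called Hakai, had 1127 and 766 in NT and 2984 and 2717 with Go6983, and its NT replicate 1 stood above replicate 2. *Rnf157*, another RING-finger gene, had 622 and 545 in NT and 1593 and 1726 with Go6983. The ubiquitin and chaperone list divided into 21 called higher and 15 lower of 36, with 5 abundant lower genes beside the 3 members. *Zc3hav1*, the zinc finger antiviral protein, had 921 and 1042 in NT and 2008 and 2240.3 with Go6983. *Cpeb1*, which binds the cytoplasmic polyadenylation element, had 550.0 and 593 in NT and 1178 and 1269.5 with Go6983. *Rbm20*, a splicing factor of titin, had 313 and 284 in NT and 887 and 864 with Go6983, and 9 of 11 listed RNA-binding genes were called higher and 2 lower.

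Immune genes among the members were *Ly75* and *B2m*. *Ly75* encodes the endocytic receptor DEC-205 and had 2056 and 2070.2 normalized counts in the NT samples and 5561 and 5390.4 with Go6983, with both pairs of replicates close. *B2m*, the light chain of class I histocompatibility molecules, had 1145 and 1364 normalized counts in the NT samples and 2468 and 2641 with Go6983. The list of interferon and innate immunity had 27 genes in the table, 24 called higher, 2 lower and 1 not called. *Tarm1*, an activating receptor of myeloid cells, was on no list and had 127 and 135 normalized counts in the NT samples and 687 and 663 with Go6983, next after *Trpm1* by its difference.

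Of the 20 members with the largest differences, *Dnah8* alone was also among the 20 with the highest means. *Lrrc31*, a leucine-rich repeat gene, had 129 and 135 normalized counts in the NT samples and 754 and 916 with Go6983, which at 6.26-fold and 2.65 ± 0.15 (SE) was the largest of all members. *Trpm1*, a cation channel of melanocytes and retinal bipolar cells whose E-box stretch is printed above, had 294 and 279 normalized counts in the NT samples and 1335 and 1775 with Go6983. *Lrrc15*, a transmembrane leucine-rich repeat protein, had 122 and 179 normalized counts in the NT samples and 764 and 746 with Go6983. The NT samples of *Lrrc31* were close and its Go6983 replicate 2 was the higher, while NT replicate 2 of *Lrrc15* and Go6983 replicate 2 of *Trpm1* were the high samples of their groups. *Aqp3*, a channel for water and glycerol, was among the 14 members highest per kb in the plot of levels per kb and had 824 and 923 normalized counts in the NT samples and 3211 and 3722 with Go6983. *Mobp*, known from the myelin of oligodendrocytes, had 252 and 286 in NT and 981 and 1048 with Go6983. *Mindy2*, a deubiquitinase, had 236 and 240.1 in NT and 826 and 775 with Go6983. *Cdkn2d* encodes the cyclin-dependent kinase inhibitor p19 and had 142 and 169 normalized counts in the NT samples and 448 and 549 with Go6983; it was the only member among 8 listed cell cycle and apoptosis genes, of which 4 were called higher and 4 lower, all 4 lower ones abundant. *Fam189a2*, a transmembrane protein gene, had 148 and 154 in NT and 539 and 612 with Go6983. For both genes with an E-box stretch shown, the 2 NT samples were close. The uncharacterised *2510009E07Rik* had 154 and 161 in NT and 705 and 772 with Go6983, and *C330007P06Rik* had 868 and 819.5 in NT and 2795 and 2918 with Go6983. *Dixdc1*, a DIX-domain protein of the Wnt pathway, had 642 and 265 in NT and 1349.9 and 1321 with Go6983, so the NT samples differed by over 2-fold and the Go6983 samples hardly at all.

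**Figure D5:**
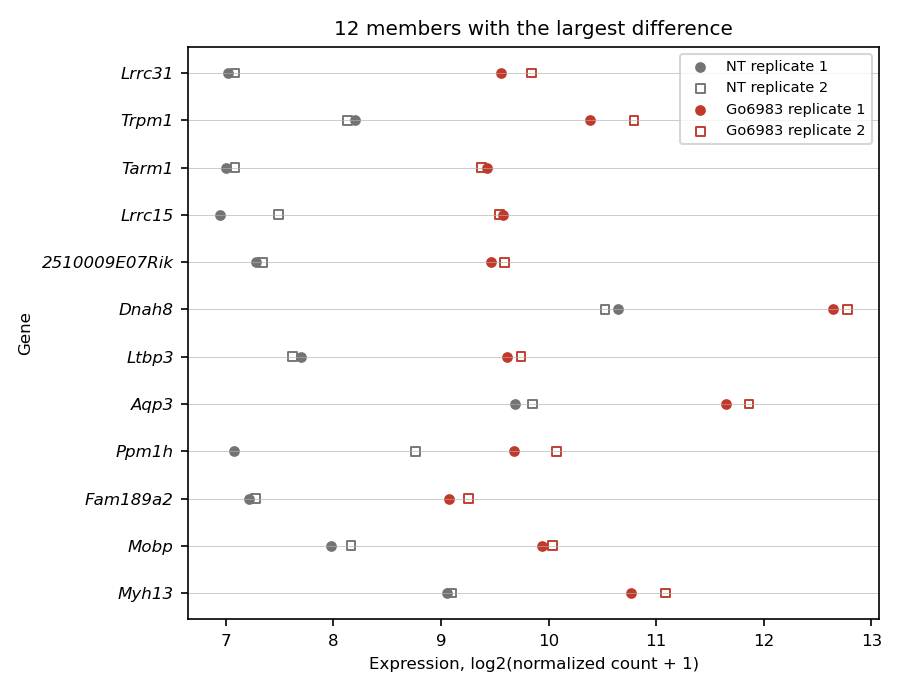
Expression in each sample, as log2(normalized count + 1) on the x axis, of the 12 members with the largest difference, from *Lrrc31* at 2.65 down to *Myh13* at 1.84. Grey marks are NT and red marks Go6983; no gene overlaps between groups, and the NT marks of *Ppm1h* are the ones farthest from each other.

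The neural list contributed *Tenm4*, *Ncam1* and 4 leucine-rich repeat genes that matched it by symbol alone. *Tenm4*, a teneurin, had 4313 and 3254 normalized counts in the NT samples and 8539 and 7705 with Go6983, with NT replicate 1 above replicate 2. *Ncam1*, the neural cell adhesion molecule, had 972 and 1180.2 normalized counts in the NT samples and 1819 and 2776 with Go6983, with a wide gap between the Go6983 samples. *Lrrc8b*, a subunit of volume-regulated anion channels, had 298 and 297 in NT and 694 and 649 with Go6983. Of 29 genes of this list 22 were called higher and 7 lower, with 4 abundant lower genes beside the 6 members. The imprinted gene list had 8 genes in the table, 2 called higher and 6 lower, with 3 abundant lower genes and no member. In all, 96 of the 175 members were on at least 1 list and 79 were on none.

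Members differed in how even their replicates were. Relative to the difference, the widest gaps were those of *Nhsl1*, *Ppm1h*, *Dixdc1*, *Habp4* and *Srgap1*. *Nhsl1*, an actin regulator of the Nance-Horan family, had 908 and 470.0 normalized counts in the NT samples and 1430.1 and 1353 with Go6983, and *Habp4*, a hyaluronan and RNA-binding protein, had 318 and 496 normalized counts in the NT samples and 843 and 791 with Go6983. In both, the wide gap was between the NT samples. The narrowest were those of *Stat5b*, *Creb3l2*, *Baiap2l1*, *BC067074* and *Ly75*. *Baiap2l1*, an I-BAR protein that shapes membranes with actin, had 217 and 214 normalized counts in the NT samples and 509 and 518 with Go6983, and *BC067074* had 1407 and 1386 normalized counts in the NT samples and 3057 and 3008 with Go6983. A gap of over 0.5 on the log2 scale between replicates was found in 10 members in NT and 8 with Go6983.

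Members were long genes. Their median exonic length was 6.148 kb and their median span 48.01 kb. The 115 abundant genes lower by the same limits, with the same families left out, had 3.646 kb and 16.14 kb. All 1201 listed protein-coding genes had 3.946 kb and 28.13 kb, and the 22028 protein-coding genes of the annotation 3.488 kb and 17.32 kb. These are descriptions without a test, and normalized counts were not divided by length when the members were chosen. The X chromosome held 4 of the 175 members, which is 2.29%, against 3.16% of the listed and 4.30% of the annotated protein-coding genes.

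Some members were neighbours. Within 100 kb of each other lay 7 pairs formed by 13 members. *Lrrc34* and *Lrrc31*, at chr3:30624267-30647869 and chr3:30679058-30699843 on GRCm38 and on the same strand, are 31.2 kb apart with 1 protein-coding gene between them. *Lrrc34* had 1058 and 1204 normalized counts in the NT samples and 2827 and 3194 with Go6983, a 2.66-fold difference beside the 6.26-fold difference of *Lrrc31*. *Pde8a*, *Cpeb1* and *Ap3b2* lie in that order on chromosome 7, with a gap of 12.5 kb that holds 1 protein-coding gene and a gap of 4.93 kb that holds none. *Ap3b2*, a neuronal subunit of the AP-3 adaptor, had 333 and 396 normalized counts in the NT samples and 1058 and 976 with Go6983, and the fold differences in that order were 2.21, 2.14 and 2.79. On chromosome 15 *Kdelr3*, a receptor that returns proteins to the endoplasmic reticulum, lies 33.8 kb from *Dmc1* and had 706 and 735 normalized counts in the NT samples and 1616 and 1823 with Go6983; *Letmd1*, a mitochondrial inner membrane protein, lies 96.2 kb from *Pou6f1* and had 374 and 386 normalized counts in the NT samples and 850.4 and 1013 with Go6983. On chromosome 11 *Plxdc1* lies 50.2 kb from *Stac2*, an adaptor of muscle calcium channels, which had 986 and 891 normalized counts in the NT samples and 1997 and 2295 with Go6983. On chromosome 6 *Gprc5a* lies 52.8 kb from *Hebp1*, a heme-binding protein, which had 1055 and 1166 normalized counts in the NT samples and 2466 and 2558 with Go6983. Neighbouring members differed in strand in all pairs except *Plxdc1* with *Stac2*, *Lrrc34* with *Lrrc31* and *Cpeb1* with *Ap3b2*.

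Reads of some members may belong to overlapping genes, since the strand setting of the counting is not given in the sources used here. In GENCODE M21, 110 members share no exonic base with another gene, 13 share some with a gene on the same strand and 55 with one on the opposite strand. In 3 members over 50% of the exonic bases are shared with a same-strand gene: *Pla2g4b*, *Trf* with 63.5% and the read-through gene *Gm28043* with 52.0%. *Gm28043* had 861 and 965 normalized counts in the NT samples and 1884 and 2322 with Go6983, while *Rnf8*, which overlaps it on the same strand and is itself listed, had a mean of 1045 normalized counts in NT and 433 with Go6983. Values for these 3 members are uncertain. *Trf*, the iron carrier transferrin, had 373 and 401 normalized counts in the NT samples and 739 and 811 with Go6983. *Dnah8* shares exonic bases with the opposite-strand listed gene *1700097N02Rik*, which had a mean of 265 normalized counts in NT and 584 with Go6983, and *Lrrc31* with *Gm15462*, at 33.1 and 124.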

How the data were processed

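RNA was sequenced from 2 NT and 2 Go6983 samples of 46C mESCs. The authors deposited 1 table of log2 values per gene and sample, which are log2(normalized count + 1); Bowtie 0.12.2 and the build mm9 are listed in the submitters' processing notes. Of the counter, annotation, strand setting and normalization tool each is not given in the sources used here. Columns with the authors' group means, log2 fold changes, p-values and FDR are also in the table and were not used.

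Samples were grouped by their treatment label. The deposited log2 values were fitted unchanged, so that the pseudocount is 1, by limma 3.58.1 (eBayes with trend) in R 4.3.3 over all 1577 genes, with Benjamini-Hochberg adjustment and no filter on low values. The fit was also run on simulated counts in which 200 genes changed and the others did not. The deposited table holds only genes listed as changed, so that run does not tell how often its calls are wrong. Biotypes, lengths and positions came from GENCODE M21 (GRCm38), with 1572 genes matched by ID, and exonic length is the union of all exons. Promoter windows came from RefSeq. The members and the gene lists were chosen with earlier results of these data known. Named were the 20 members with the highest mean, the 20 with the largest difference, up to 4 per list by mean, 3 on each side of a limit, members within 100 kb of each other, and the 5 with the widest and the 5 with the narrowest replicate gaps relative to the difference. Genes lower by the limits are named as examples of their list. Alternatives were the limits of the rule, the scaling, the pseudocount, a filter at a mean of 5, each replicate left out, a replicate block, limma without trend and limma-voom on the whole reads. Some genes that this rule names are not reported here.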

Additional observations from a re-analysis of the deposited data

How the results depend on the processing

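The rule found 175 members, 269 with a mean of at least 7, 107 with a mean of at least 9 and 29 with a difference of at least 1.5. With each library scaled by its total over the listed genes the median of all listed genes shifted by -0.13 on the log2 scale, 122 genes passed the rule, and the members' median difference was 1.07 in place of 1.20. All 175 members kept a difference above 0 under that scaling. A shift of this size fixed that in advance, since the smallest difference of a member was 1.00. Leaving out each replicate in turn, the rule found 140 to 180 genes, 150 to 172 of the members were called higher at an adjusted p below 0.05, and 115 members passed both limits in every case. Over all listed genes, 1085 were called higher, against 461 without Go6983 replicate 1, 431 without Go6983 replicate 2 and 858 and 854 without NT replicates 1 and 2; of those called lower, 469 became 260 to 315. A fit that leaves 1 sample in a group assumes that this sample varies like the other group. At an adjusted p below 0.01, 172 members were called, and the share of all listed genes at that limit was not computed. The numbers 1 and 2 do not pair the samples by any label, and the replicate gaps of the NT and Go6983 samples had a correlation of 0.03 over all listed genes, 0.19 over those with a mean of at least 8 and 0.17 over the members; with a replicate block 175 members were called, as in the fit without it. Pseudocount 0.1, limma without trend and limma-voom also called 175. Over all 1577 listed genes, 1070 were called higher with the block, 1036 with pseudocount 0.1, 1050 without trend and 1086 with limma-voom. The rule used this contrast, so nothing is read from the counts of members called. Of 104 named genes, 71 moved by more than 1 replicate SD under the listed-total scaling. Of these genes 0 changed sign, which the size of the shift also fixed in advance. Groups of 2 samples limit the precision, and a size below the table's own selection cannot be seen.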

Other observations

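Members on none of the gene lists were read by function after their values were seen, so the names in this paragraph were chosen with those values known. *App*, the amyloid precursor protein, which *Sorl1* is known to sort, had 1624 and 1671 normalized counts in the NT samples and 3344 and 3477 with Go6983. *Retreg1*, a receptor for autophagy of the endoplasmic reticulum, had 321 and 346 normalized counts in the NT samples and 780.4 and 807 with Go6983. *Naglu*, a lysosomal enzyme that degrades heparan sulfate, had 199 and 212 normalized counts in the NT samples and 451 and 486 with Go6983. All 3 had close replicates in both groups. *Eef2k*, the kinase that phosphorylates elongation factor eEF2, had 513 and 469 normalized counts in the NT samples and 1043 and 1062 with Go6983. *Prex1*, an exchange factor for Rac, had 561 and 483 normalized counts in the NT samples and 1026 and 1157 with Go6983. Members known from cilia, beside *Dnah8* and *Dnah2*, included *Hydin* and *Cfap45*. *Hydin* had 199 and 185 normalized counts in the NT samples and 518 and 354 with Go6983. *Cfap45* had 254 and 231 normalized counts in the NT samples and 532 and 529 with Go6983. Cilium genes were not counted as a list, and *Foxj1*, a transcription factor of motile cilia, was among the abundant genes that were lower. The Go6983 samples of *Hydin* were further apart than those of *Cfap45*, and in neither gene did the groups overlap. *Wfdc2*, a secreted protein with whey acidic protein domains, had 248 and 258 normalized counts in the NT samples and 780.4 and 709 with Go6983. *Cdo1*, the cysteine dioxygenase, had 555 and 548 normalized counts in the NT samples and 1157 and 1436 with Go6983. *Alox12*, the arachidonate 12-lipoxygenase, had 224 and 210.5 normalized counts in the NT samples and 464 and 554 with Go6983.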
